A study of Mus musculus with 4 samples.

Results

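The genes described here are 10 transcripts that glucocorticoids induce, that mark resting lymphocytes, or both: Tsc22d3, Zfp36l2, Txnip, Pik3ip1, Klf2, Fkbp5, Sgk1, Ddit4, Cited2 and Mt1. They were taken by symbol from the 27998 genes listed for each library, and each symbol was found once. They were chosen because earlier results of these libraries had shown several of them at lower levels after exercise in lymphocytes, so their differences between the groups are given as a description, without a test. Leukocytes carrying CD45 were pulled from the liver of wild-type C57BL/6 mice with magnetic beads, and their RNA molecules were counted cell by cell in droplets by unique molecular identifiers (UMIs). The 2 exercise libraries came from a group that ran on a motorized treadmill at 12.5 m/min, and the 2 sedentary libraries from a group kept on a treadmill that stood still. Both groups had 60 min sessions on 5 days a week over 4 weeks. The label of each library gives the serum alanine aminotransferase at harvest, an enzyme released from injured hepatocytes, and in U/L it read 26 for exercise replicate 1, 59 for exercise replicate 2, 33 for sedentary replicate 1 and 56 for sedentary replicate 2. The sources used here give neither age nor sex of the animals.

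Glucocorticoids are adrenal hormones that enter cells, bind the glucocorticoid receptor and release it from its chaperones, after which the receptor binds DNA and switches target genes on or off. In lymphocytes these targets include inhibitors of activation, and they overlap with genes of quiescence, the resting state in which naive lymphocytes keep PI3K and mTOR signalling and glucose uptake low until an antigen is met. In the liver the same hormones act on resident macrophages (Kupffer cells) and on sinusoidal endothelial cells, while the lymphocytes are a mixture of tissue-resident and recirculating cells.

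Promoter windows from 250 bases before to 50 bases after a transcript start were available from RefSeq (GRCm38.p6) for 9 of the 10 genes, with no entry for Zfp36l2, and held 16 starts. The palindromic glucocorticoid response element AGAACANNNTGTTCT occurred in 3 of 32851 promoters (0.00913%), and Sgk1 was the only one of the 9 genes with a match. The stretch is shown because Sgk1 is a classical target of the receptor; the response element is in capitals, from −189 to −175 relative to one of 4 Sgk1 starts, at chr10:21993680-21993769 on the plus strand. It lies inside the annotated span of Sgk1 and overlaps no exon in GENCODE.

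Sgk1: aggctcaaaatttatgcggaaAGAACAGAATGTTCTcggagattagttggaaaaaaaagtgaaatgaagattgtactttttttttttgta

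The Txnip promoter is shown because Txnip is a target both of forkhead factors, which are active in resting cells, and of a glucose-sensing factor. Its capitals mark the forkhead motif GTAAACA from −121 to −115 (3.65% of promoters held this motif) and the carbohydrate response element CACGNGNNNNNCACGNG from −85 to −69 (0.0487% of promoters), at chr3:96557817-96557916 on the plus strand. The stretch overlaps an exon of Gm15441, a gene annotated antisense to Txnip.

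Txnip: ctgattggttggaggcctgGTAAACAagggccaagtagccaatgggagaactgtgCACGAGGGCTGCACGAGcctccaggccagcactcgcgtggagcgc

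Both strands were searched, and a match is a description of these letters, not a site of binding. The shorter motif AGAACA, which is part of the full element, occurred in 19% of promoters. It was found in 4 of the 16 windows of these genes, those of Sgk1 and Tsc22d3. The metal response element core, searched as TGCACNC and TGCGCNC, occurred in 25.7% of promoters. Among the 16 windows it was found in 6, of Mt1, Sgk1, Txnip, Klf2, Ddit4 and Cited2.

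The 4 libraries held 2991 to 4265 barcodes and 10050976 to 14849778 UMIs, and 14560 of 15383 barcodes were kept as cells. Clusters were named from marker genes, so each class is called "like" its cell type. T-like cells (2415 cells) had 8 of 9 T markers detected in at least 10% of the cells of each of their 4 clusters, B-like cells (2152) 9 of 9 B markers in both of theirs, and endothelial (LSEC)-like cells (858), present although CD45+ cells had been selected, 11 of 11. Kupffer-like cells (5486) had 10 of 10 Kupffer markers in both clusters. In the larger Kupffer cluster, however, the mean log2 fold over other cells was 1.35 for erythroid and 1.12 for hepatocyte markers against 1.06 for Kupffer markers. UMIs were summed per library and class, and levels are CPM, UMIs scaled to 1000000 per class and library. All classes come from the same 4 libraries, so they are no independent repeats of the comparison. In these sums a difference in the makeup of a class and a difference in RNA per cell cannot be told apart.

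In T-like cells 7 of the 10 genes were lower after exercise without overlap between the groups, and Cited2 was higher. In B-like cells 6 of the 10 were lower in this way and none higher. Kupffer-like cells differed from this: 3 genes (Fkbp5, Sgk1 and Ddit4) were lower and 2 (Zfp36l2 and Klf2) higher. Endothelial-like cells had 1 gene lower, Tsc22d3, and 1 higher, Klf2, among the 8 with enough counts. Over all genes tested, groups without overlap and lower after exercise made up 13.4%, 15.2%, 19.4% and 14.7% of genes in T-like, B-like, Kupffer-like and endothelial-like cells. Those higher after exercise made up 24.6%, 19.7%, 15.9% and 19.1%. In NK or ILC-like and in pDC-like cells 5 of 7 genes with enough counts were lower without overlap, as were 16.1% and 15.2% of all genes tested there. In edgeR's quasi-likelihood test across all genes, Txnip was the only one of the 10 called in T-like cells, where 0.0361% of 8320 genes were called lower. Pik3ip1, Tsc22d3 and Zfp36l2 were called lower in B-like cells, where 0.239% of 6688 genes were. Zfp36l2 was called lower in NK or ILC-like cells, where 0.0573% of 3493 genes were. None was called in pDC-like cells (0.0197% of 5068 genes called lower), in Kupffer-like cells (0.427% of 9846 genes called lower) or in endothelial-like cells (0.0352% of 5682). The genes were chosen on this contrast, so nothing is read from these counts.

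**Figure D1:**
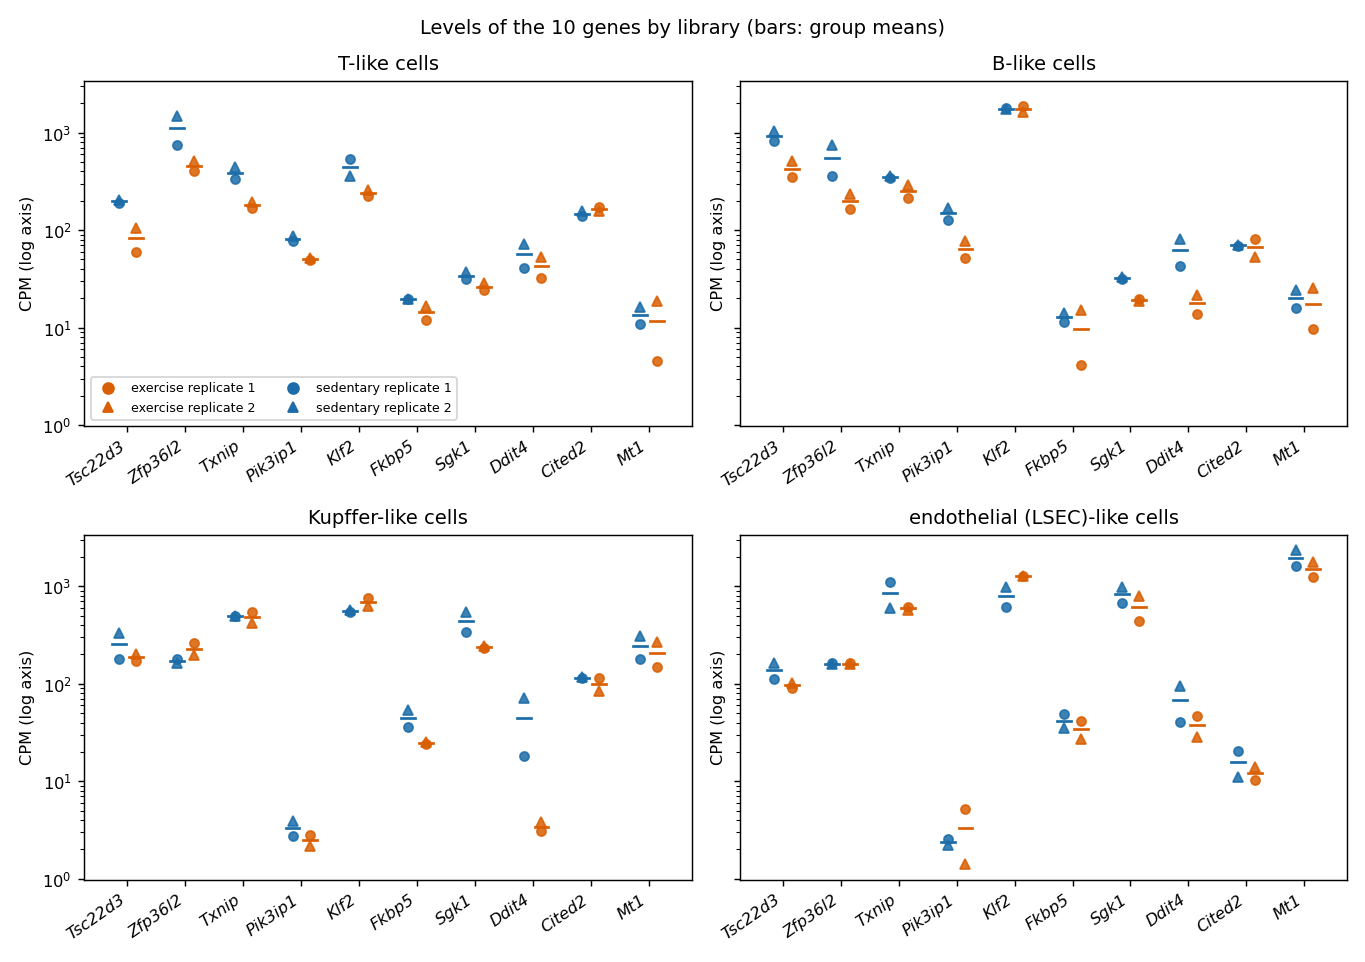
CPM of the 10 genes on a log axis in 4 classes, with one point per library (circles replicate 1, triangles replicate 2), orange for exercise and blue for sedentary; short bars are group means. In T-like cells the orange points lie below the blue ones for 7 genes, whereas in Kupffer-like cells Zfp36l2 and Klf2 have the orange points above.

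Tsc22d3 encodes GILZ, a leucine zipper protein induced by glucocorticoids that restrains NF-kB and AP-1 (chromosome X, 140539528 to 140600659, GRCm38). In T-like cells it stood at 60.3 and 104 CPM in exercise replicates 1 and 2 and at 189 and 205 CPM in sedentary replicates 1 and 2. In B-like cells the values were 349 and 509 CPM against 813 and 1052 CPM. Both exercise libraries were the low ones in both classes, with log2 changes (exercise minus sedentary) of −1.30 (SE 0.20) and −1.14 (SE 0.18), or 0.405 and 0.453 times the sedentary level. NK or ILC-like cells showed the same order, at 70.7 and 83.3 CPM against 162 and 241 CPM, and so did pDC-like cells, the plasmacytoid dendritic cells, at 78.0 and 108 CPM against 157 and 240 CPM. In Kupffer-like cells the groups overlapped, at 172 and 201 CPM against 179 and 333 CPM, and the log2 change of −0.45 (SE 0.26) ran from −0.85 without sedentary replicate 1 to 0.12 without sedentary replicate 2. Endothelial-like cells had 90.5 and 102 CPM against 113 and 165 CPM, a log2 change of −0.54 (SE 0.24) that was −0.21 without sedentary replicate 2. Across the 12 classes Tsc22d3 was without overlap and lower after exercise in 8 and higher in none. The share of all genes that were lower in this way in 1 class ran from 11.6% to 19.4%. The share that were so in as many classes is not given here.

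Zfp36l2 encodes an RNA-binding protein that promotes decay of mRNAs with AU-rich elements and holds lymphocytes in a resting state (chromosome 17, 84183931 to 84187947). It was lower after exercise in lymphocytes and higher in Kupffer-like cells. T-like cells had 402 and 518 CPM after exercise and 750 and 1471 CPM in the sedentary libraries. B-like cells had 164 and 235 CPM against 357 and 745 CPM. In each of these classes the exercise libraries were low and sedentary replicate 2 was far above the other three. The log2 changes were −1.33 (SE 0.24) and −1.48 (SE 0.28), and without sedentary replicate 2 they were −0.77 and −0.85. In NK or ILC-like cells the log2 change was −1.47 (SE 0.22), from 471 and 447 CPM against 906 and 1581 CPM, and in pDC-like cells −1.47 (SE 0.25), from 167 and 209 CPM against 336 and 688 CPM. Without sedentary replicate 2 these were −0.98 and −0.83. Kupffer-like cells had the exercise libraries on top, at 260 and 197 CPM against 181 and 164 CPM. Their log2 change was 0.42 (SE 0.14), and 0.23 without exercise replicate 1. Cycling Kupffer-like cells had the same order, at 251 and 219 CPM against 169.9 and 169.7 CPM. In endothelial-like cells the 4 libraries were within 159 to 164 CPM, with no order between the groups. Other myeloid classes were lower after exercise without overlap, with a log2 change of −1.0 in cDC1-like, −0.43 in cDC2-like (−0.28 without exercise replicate 2), −0.35 in classical monocyte-like (−0.10 without exercise replicate 1, −0.66 without exercise replicate 2) and −0.31 in other macrophage-like cells (−0.47 without exercise replicate 1, −0.13 without exercise replicate 2). Over the 12 classes Zfp36l2 was lower without overlap in 8 and higher in 3. Of all genes tested in 1 class, 11.6% to 19.4% were lower in this way and 13.3% to 24.6% higher. The share of all genes that were so in as many classes is not given here. A test of the difference between classes was not made.

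Pik3ip1, Ddit4 and Txnip act as brakes on growth and sugar metabolism. Pik3ip1 is a membrane protein that inhibits PI3K in resting T cells (chromosome 11, 3330401 to 3342971). Its level in T-like cells was 49.9 and 52.0 CPM after exercise against 76.8 and 86.8 CPM, a log2 change of −0.74 (SE 0.15). B-like cells had 51.4 and 77.0 CPM against 128 and 170 CPM, a log2 change of −1.22 (SE 0.22). The exercise libraries were below the sedentary ones in both classes and also in pDC-like cells (log2 change −1.16, SE 0.25) and NK or ILC-like cells (−1.77, SE 0.55). The NK or ILC-like value rests on few molecules, with 2 and 7 UMIs against 10 and 20. Pik3ip1 was close to absent from Kupffer-like cells, at 2.15 to 3.87 CPM.

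With every cell thinned to 1000 UMIs, Pik3ip1 was seen in 4.70% and 8.01% of B-like cells after exercise and in 12.5% and 15.6% in the sedentary libraries. Unthinned shares were 8.56% and 13.4% against 18.1% and 23.8%. Thinning left out 43 shallower B-like cells, all from sedentary replicate 1. The share of Kupffer-like cells with a Pik3ip1 UMI, which serves as the background level, was at most 0.343% after thinning. Median UMIs per cell were 1376 to 1735.5 in B-like and 2250 to 2960 in Kupffer-like cells. The B-like shares are therefore above background in all 4 libraries, and they keep the order of the CPM values.

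Ddit4 encodes REDD1, an inhibitor of mTORC1 that is induced by glucocorticoids and by stress (chromosome 10, 59949669 to 59951834). Kupffer-like cells had 3.06 and 3.81 CPM after exercise and 18.2 and 71.4 CPM in the sedentary libraries, which are 12 and 23 UMIs against 60 and 295. The 2 exercise libraries were low and alike, and the sedentary libraries differed from each other. The log2 change was −3.69 (SE 0.66) and was −2.31 without sedentary replicate 2. B-like cells had 13.9 and 21.5 CPM against 42.9 and 81.3 CPM, a log2 change of −1.78 (SE 0.37). In T-like cells the groups overlapped, at 32.1 and 53.5 CPM against 41.0 and 72.3 CPM, and the log2 change of −0.46 ran from −0.90 without exercise replicate 2 to 0.02 without sedentary replicate 2, with −0.79 without sedentary replicate 1 and −0.13 without exercise replicate 1. Ddit4 was highest in sedentary replicate 2 in all 12 classes.

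Txnip binds thioredoxin and restrains glucose uptake (chromosome 3, 96557957 to 96561883). In T-like cells it was at 171 and 194 CPM after exercise and at 331 and 444 CPM in the sedentary libraries. The exercise libraries were again the low ones, with a log2 change of −1.15 (SE 0.15), or 0.452 times the sedentary level. B-like cells had a smaller difference, 211 and 291 CPM against 340 and 361 CPM, with a log2 change of −0.50 (SE 0.16) that was −0.27 without exercise replicate 1 and −0.78 without exercise replicate 2. Kupffer-like cells overlapped, at 544 and 423 CPM against 500.4 and 491 CPM (log2 change −0.02, SE 0.13). Endothelial-like cells overlapped too, with sedentary replicate 1 at 1116 CPM and the other three libraries at 575 to 618 CPM. Gm15441 overlaps Txnip on the opposite strand, and antisense genes also overlap Pik3ip1, Fkbp5 and Zfp36l2. The sources used here do not say whether counting used strand, so UMIs of these pairs cannot be told apart.

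Klf2 encodes a transcription factor that keeps naive T cells resting and sets their exit from tissues, and that responds to blood flow in endothelium (chromosome 8, 72319033 to 72321656). T-like cells had 224 and 257 CPM after exercise against 535 and 360 CPM. The exercise libraries were lower, with a log2 change of −0.95 (SE 0.17) that was −0.63 without sedentary replicate 1. Kupffer-like cells had the opposite order, at 759 and 625 CPM against 546 and 578 CPM, a log2 change of 0.31 (SE 0.12) that was 0.19 without exercise replicate 1 and 0.15 in cells with no hepatocyte UMI. Endothelial-like cells had 1280 and 1291 CPM against 612 and 991 CPM. The exercise libraries were alike there and above both sedentary ones, with a log2 change of 0.66 (SE 0.18), which was 0.34 without sedentary replicate 1 and 1.07 without sedentary replicate 2. B-like cells overlapped, at 1866 and 1616 CPM against 1772 and 1759 CPM, with a log2 change of −0.05 (SE 0.10). Klf2 thus parted the lymphocytes: lower in T-like cells, without an order in B-like cells and in NK or ILC-like cells (log2 change 0.04, SE 0.25).

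Fkbp5 and Sgk1 are textbook receptor targets. Fkbp5 encodes a co-chaperone that dampens the glucocorticoid receptor (chromosome 17, 28399094 to 28517527). Kupffer-like cells had 24.2 and 25.2 CPM after exercise against 36.1 and 53.3 CPM, a log2 change of −0.85 (SE 0.20), with both exercise libraries below. Without sedentary replicate 2 the change was −0.49. T-like cells had 12.1 and 16.7 CPM against 19.8 and 19.7 CPM. That difference rests on 21 and 34 UMIs against 31 and 34, and its log2 change of −0.50 (SE 0.27) ran from −0.78 without exercise replicate 2 to −0.29 without exercise replicate 1. B-like cells overlapped, with 3 to 16 UMIs per library.

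Sgk1 encodes a kinase of the PI3K pathway that is induced by serum and glucocorticoids (chromosome 10, 21882184 to 21999903). Kupffer-like cells had 230 and 244 CPM after exercise and 340 and 543 CPM in the sedentary libraries, a log2 change of −0.88 (SE 0.21) that was −0.46 without sedentary replicate 2. Other macrophage-like cells had the same order, at 87.0 and 105 CPM against 139 and 235 CPM. In T-like cells Sgk1 was at 24.1 and 28.5 CPM against 31.4 and 37.0 CPM, and in B-like cells at 19.5 and 18.9 CPM against 31.5 and 33.1 CPM, again without overlap. Endothelial-like cells overlapped, at 442 and 788 CPM against 673 and 982 CPM. Sedentary replicate 2 was the highest library for Sgk1 in all 12 classes.

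Neither Cited2 nor Mt1 was lower after exercise without overlap in T-like or B-like cells. Cited2, which competes with HIF-1 for the coactivators CBP and p300 (chromosome 10, 17723218 to 17725674), stood at 173 and 157 CPM after exercise and 139 and 156 CPM in the sedentary group in T-like cells. The groups were parted by little more than 1 CPM, and the log2 change of 0.10 (SE 0.12) ran from 0.03 without sedentary replicate 1 to 0.18 without sedentary replicate 2. Other macrophage-like and cycling Kupffer-like cells had Cited2 lower without overlap (log2 changes −0.28, SE 0.24, and −0.27, SE 0.35). Of all genes tested there, 16.2% and 17.3% were lower in this way. Mt1, a zinc-binding metallothionein induced by metals and glucocorticoids (chromosome 8, 94179082 to 94180327), overlapped in all 12 classes. In endothelial-like cells its levels were 1239 and 1790 CPM against 1609 and 2338 CPM, and in Kupffer-like cells 150 and 267 CPM against 180 and 308 CPM. The log2 changes were −0.40 (SE 0.19) and −0.21 (SE 0.31). The Kupffer-like value was 0.16 without exercise replicate 1 and 0.27 without sedentary replicate 2. In both classes replicate 2 was above replicate 1 in each group. Mt1 has a close paralog, Mt2, and the sources used here do not say how UMIs were split between them.

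**Figure D2:**
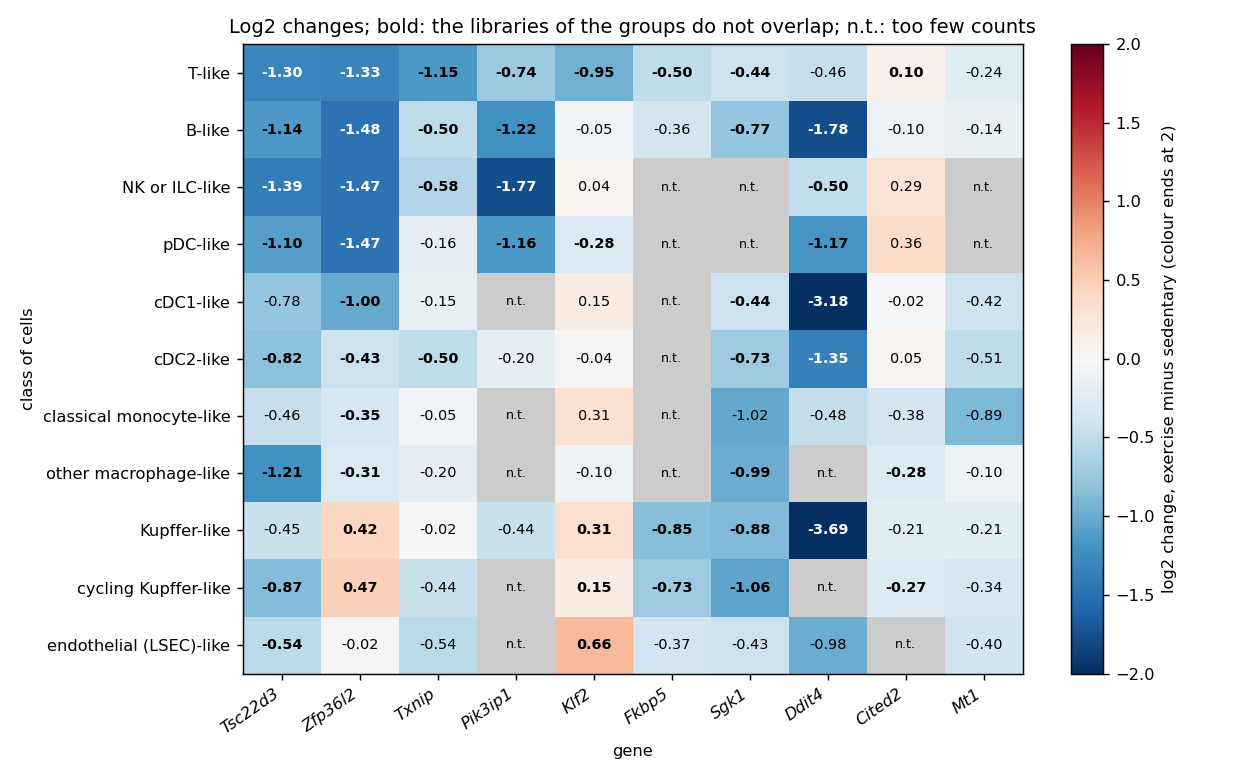
Log2 change (exercise minus sedentary) of each gene in 11 named classes, blue for lower and red for higher after exercise; bold numbers mark groups whose libraries do not overlap, and n.t. marks genes with too few counts. Tsc22d3 is negative in every class shown, whereas Zfp36l2 is −1.33 in T-like and 0.42 in Kupffer-like cells, and Klf2 is −0.95 in T-like and 0.66 in endothelial-like cells.

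The T-like cells were divided by cluster into cells marked by Cxcr6, a chemokine receptor of liver-resident T and NKT cells (1875 cells), and cells marked by Lef1, Dapl1 or Cd8b1, genes of naive and CD8 T cells (540 cells). Cells with a Cxcr6 UMI made up 84.6% and 87.2% of the clusters of the first subset and 10.4% and 15.3% of those of the second. The Cxcr6 subset made up 82.4% (exact binomial 95% interval 79.0 to 85.5) and 83.5% (80.4 to 86.3) of T-like cells after exercise. In the sedentary libraries it made up 67.4% (63.5 to 71.1) and 77.3% (73.8 to 80.6). The intervals cover counting error only. Divided cell by cell, as cells with a Cxcr6 UMI and none of the other 3 genes, the subset made up 50.1% and 51.0% after exercise against 44.7% and 51.1%, and the groups then overlapped. Cells with a UMI of Lef1, Dapl1 or Cd8b1 and none of Cxcr6 made up 14.3% and 12.9% after exercise against 24% and 18.8%, without overlap. Both shares by cell were taken without thinning. Median UMIs per T-like cell were 3024 and 3012 after exercise against 2441 and 2558, and the part of this depth was not tested.

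Several of the 10 genes were themselves at other levels in the 2 subsets. Klf2 was at 54.3 to 111 CPM in the Cxcr6 subset and at 973 to 1391 CPM in the Lef1, Dapl1 or Cd8b1 subset. Tsc22d3 was at 42.3 to 151 CPM and 140 to 368 CPM, and Pik3ip1 at 38.4 to 51.7 CPM and 96.1 to 204 CPM. Zfp36l2 had the reverse order, at 434 to 1742 CPM and 264 to 642 CPM. The subsets came from clusters of the same cells and genes, so these levels are a description. The subset with the higher Klf2, Tsc22d3 and Pik3ip1 was also the one with the smaller share after exercise.

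Within each subset Tsc22d3, Txnip and Zfp36l2 were lower after exercise. Tsc22d3 in the Cxcr6 subset was at 42.3 and 68.4 CPM after exercise against 108 and 151 CPM, a log2 change of −1.26 (SE 0.23). In the Lef1, Dapl1 or Cd8b1 subset it was at 140 and 266 CPM against 354 and 368 CPM, a log2 change of −0.84 (SE 0.25) that was −0.43 without exercise replicate 1 and −1.45 without exercise replicate 2. Neither subset had overlapping groups for Tsc22d3. Txnip was at 166 and 198 CPM against 313 and 442 CPM in the Cxcr6 subset (log2 change −1.09, SE 0.17). In the other subset it was at 192 and 177 CPM against 367 and 452 CPM (−1.18, SE 0.18), so the values were nearly the same in both. Zfp36l2 had log2 changes of −1.44 (SE 0.24; −0.87 without sedentary replicate 2) and −1.0 (SE 0.19), both without overlap.

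Tsc22d3, Klf2 and Pik3ip1 had smaller log2 changes within both subsets than in all T-like cells (−1.30 for Tsc22d3), a difference that was not tested. Klf2 was at 54.3 and 58.2 CPM after exercise against 111 and 73.0 CPM in the Cxcr6 subset, a log2 change of −0.73 (SE 0.20) that was −0.42 without sedentary replicate 1. In the Lef1, Dapl1 or Cd8b1 subset it was at 973 and 1145 CPM against 1391 and 1235 CPM, a log2 change of −0.34 (SE 0.15) that was −0.19 without exercise replicate 1 and −0.52 without exercise replicate 2. The value in all T-like cells was −0.95, and with subsets divided cell by cell Klf2 had log2 changes of −0.28 and −0.62. Pik3ip1 had log2 changes of −0.40 (SE 0.18) and −0.67 (SE 0.25; −0.33 without sedentary replicate 2), against −0.74 in all T-like cells. Cited2 was at 194 and 172.2 CPM against 154 and 172.1 CPM in the Cxcr6 subset and at 80.6 and 88.7 CPM against 108 and 105 CPM in the other. In all, 6 of 10 genes were lower and 1 higher without overlap in the Cxcr6 subset, where 14.3% and 21% of all genes tested were. In the other subset 7 of 8 genes with enough counts were lower, where 15.1% of all genes tested were. Txnip alone was called by edgeR's test in each subset, where 0.0902% and 0.0497% of genes were called lower, and nothing is read from these counts either. With subsets divided cell by cell, none of the 10 was called.

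**Figure D3:**
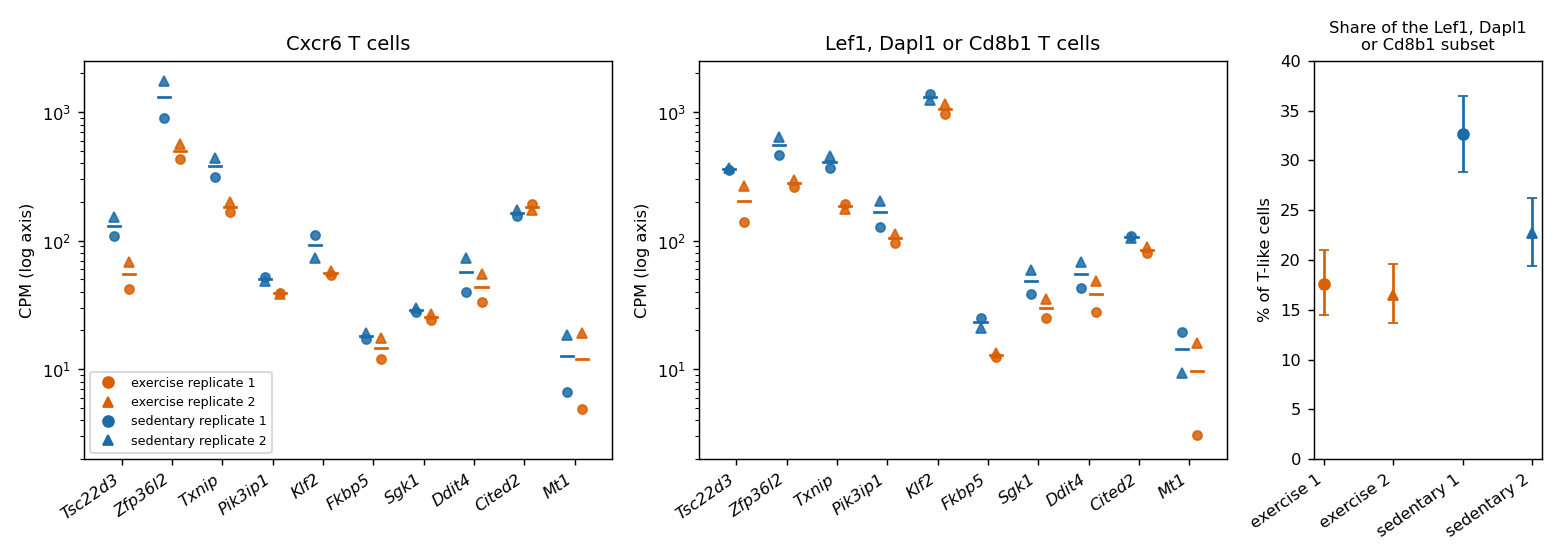
CPM of the 10 genes on a log axis by library in the Cxcr6 T subset and in the Lef1, Dapl1 or Cd8b1 T subset (points are libraries, short bars group means), and the share of T-like cells in the second subset with exact binomial 95% intervals. Tsc22d3, Zfp36l2 and Txnip have both orange (exercise) points below both blue (sedentary) points in each subset, and the share is 17.6% and 16.5% after exercise against 32.6% and 22.7%.

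Levels across the 12 classes gave each gene its own order. Tsc22d3 was highest in B-like cells, at a mean of 681 CPM over the 4 libraries (349 to 1052 CPM), and its lowest B-like library was above every library of the next class, Kupffer-like cells (221 CPM, 172 to 333 CPM). From there down to endothelial-like cells (118 CPM, 90.5 to 165 CPM) each class overlapped its neighbour in the order. Klf2 was also highest in B-like cells (mean 1753 CPM, 1616 to 1866 CPM), without overlap with endothelial-like cells (1043 CPM, 612 to 1291 CPM). Zfp36l2 was highest in NK or ILC-like (851 CPM) and T-like cells (785 CPM), whose ranges overlapped. Its lowest level in a named class was in endothelial-like cells (161 CPM), below every library of Kupffer-like cells (201 CPM, 164.3 to 260 CPM).

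Pik3ip1 was highest in B-like (107 CPM), pDC-like (74.8 CPM) and T-like cells (66.4 CPM), which overlapped. Endothelial-like cells had the highest Mt1, at 1744 CPM, without overlap with other macrophage-like cells at 303 CPM, and the highest Txnip, at 728 CPM. They also had the highest Sgk1, at 721 CPM (442 to 982 CPM), which overlapped with Kupffer-like cells at 340 CPM (230 to 543 CPM). Cited2 was highest in other macrophage-like cells (175 CPM) and lowest in endothelial-like cells (14 CPM). Fkbp5 and Ddit4 had wide ranges, and every neighbour in their orders overlapped.

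Over the mean sedentary levels in the 12 classes, the genes most like Tsc22d3 were B-cell genes: Cd79b (Pearson's r 0.90), Ebf1, Pou2af1, Ms4a1 and Fcrl1 (all 0.88), out of 7603 genes with at least 200 UMIs. Among the 10 genes, Klf2 (0.61) and Pik3ip1 (0.46) came nearest and Mt1 (−0.34) stood farthest. These correlations describe 12 classes that share libraries and differ in depth. Only B-like cells stood apart from the next class in Tsc22d3, so genes high in that 1 class rank near the top.

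**Figure D4:**
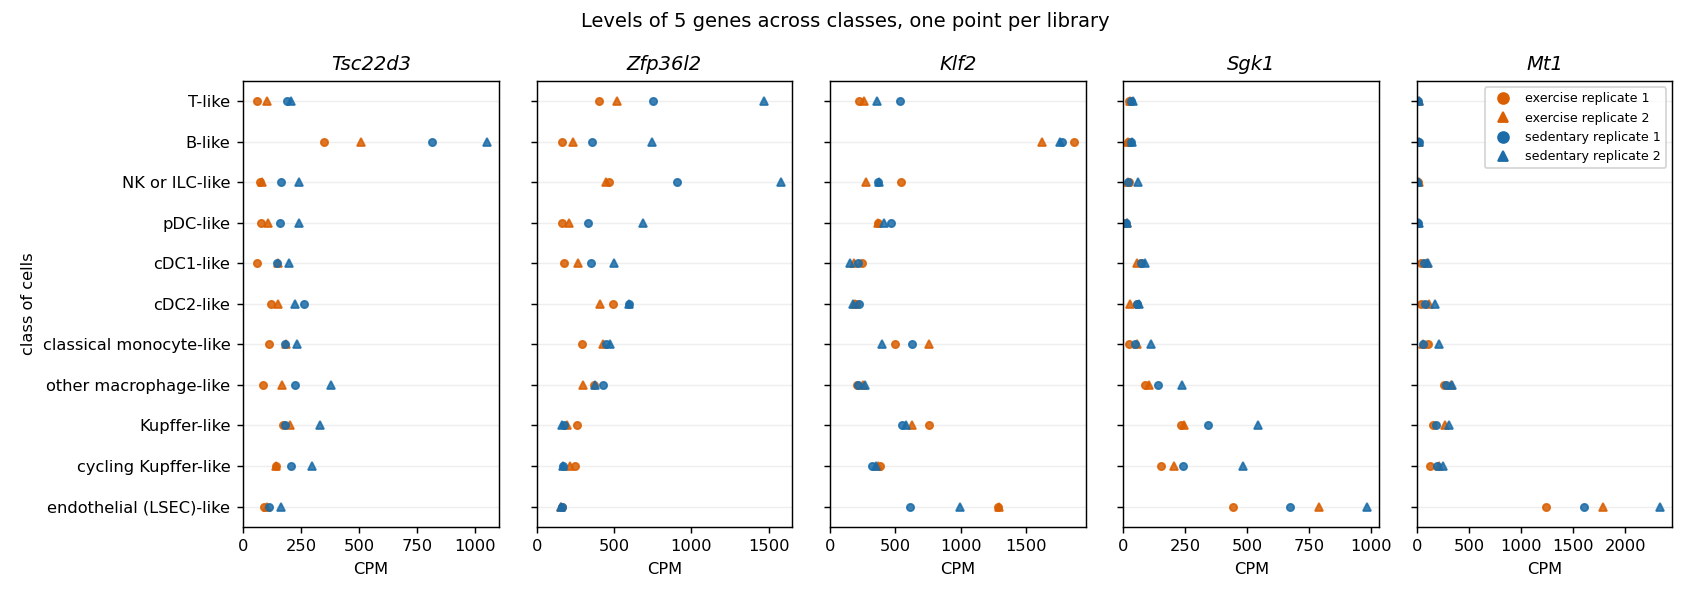
CPM of Tsc22d3, Zfp36l2, Klf2, Sgk1 and Mt1 in 11 named classes, with one point per library on linear axes that differ between genes, orange for exercise and blue for sedentary. Tsc22d3 and Klf2 peak in B-like cells, Zfp36l2 in NK or ILC-like and T-like cells, and Sgk1 and Mt1 in endothelial-like cells.

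Other genes of the same pathways were followed as 5 lists, and unlike the 10 genes their members could be tested, although the lists too were drawn up with earlier results known. No gene of these 5 lists passed edgeR's quasi-likelihood test in T-like, B-like, Kupffer-like or endothelial-like cells or in either T subset after Benjamini-Hochberg adjustment over all genes tested. Over all genes tested, an unadjusted p under 0.05 was reached by 536 of 8320 in T-like, 375 of 6688 in B-like, 577 of 9846 in Kupffer-like and 263 of 5682 in endothelial-like cells. Among other glucocorticoid-induced genes, 14 of 19 were tested in T-like cells. Of these, 11 had negative changes, the median log2 change was −0.46 against −0.01 over all genes tested, and 6 had an unadjusted p under 0.05. In Kupffer-like cells 13 of 15 were negative (median −0.29 against 0.00) and 5 had an unadjusted p under 0.05. In B-like cells 7 of 10 were negative (median −0.39) and 5 had an unadjusted p under 0.05, and in endothelial-like cells 9 of 10 were negative (median −0.28) and 1 had such a p. DESeq2 called 2 genes of the list lower in T-like cells, Dusp1 and Il7r, 2 in Kupffer-like cells, Klf9 and Nfkbia, 1 in the Cxcr6 subset, Dusp1, and none in the other units.

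Il7r, the interleukin-7 receptor of resting T cells, came closest in T-like cells, at 104 and 116 CPM after exercise against 179 and 203 CPM. Its log2 change was −0.86 (SE 0.13, edgeR adjusted p = 0.056, from 3.73e-06 to 0.50 over the alternatives). Il7r is among the leading genes of the clusters of the Lef1, Dapl1 or Cd8b1 subset, and within the subsets its log2 changes were −0.76 (edgeR adjusted p = 0.393) and −0.49 (edgeR adjusted p = 0.870). Dusp1, a phosphatase that switches off MAP kinases, was at 123 and 136 CPM against 186 and 299 CPM (log2 change −0.96, edgeR adjusted p = 0.120). Nfkbia, the inhibitor of NF-kB, had a log2 change of −0.52 in T-like and −0.74 in Kupffer-like cells (edgeR adjusted p = 0.580 and 0.126).

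The receptor and its chaperones had medians close to that of all genes, at −0.03 in T-like, −0.05 in B-like and −0.12 in Kupffer-like cells. Of 7 genes tested in T-like cells none had an unadjusted p under 0.05 and DESeq2 called none. The chaperones Ptges3 and Stip1 had log2 changes of −0.12 and −0.15 in T-like cells, and Hsd11b1, which regenerates active glucocorticoid, 0.10. The groups overlapped for all 3 in T-like cells. Kupffer-like cells had negative changes for 7 of 7 genes tested. Of these, 1 had an unadjusted p under 0.05, against 577 of 9846 over all genes tested there. Hsd11b1 was low in Kupffer-like cells, at 1.02 and 0.83 CPM after exercise against 6.68 and 3.15 CPM, without overlap. Its log2 change there was −2.34 (SE 0.56, edgeR adjusted p = 0.255). Summed hepatocyte markers had the same order of libraries in Kupffer-like cells, at 148 and 109 CPM after exercise against 1337 and 665 CPM. Their part in the Hsd11b1 values was not tested.

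Among 21 other quiescence genes, 20 had negative changes in T-like cells (median −0.30) and 7 of 18 in B-like cells (median 0.03). Unadjusted p under 0.05 was reached by 9 of the 21 and 2 of the 18, against the 536 of 8320 and 375 of 6688 genes given above. In the Cxcr6 subset 13 of 17 and in the Lef1, Dapl1 or Cd8b1 subset 11 of 17 were negative. S1pr1, a Klf2 target that lets lymphocytes leave tissue, was at 20.7 and 24 CPM after exercise against 48.0 and 38.8 CPM in T-like cells (log2 change −1.0, edgeR adjusted p = 0.145). Btg1, an antiproliferative gene, was at 1276 and 1099 CPM against 1434 and 1932 CPM (−0.56, edgeR adjusted p = 0.222). DESeq2 called Il7r alone of this list, in T-like cells.

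PI3K, mTORC1 and glucose uptake partners had 7 of 17 negative changes in T-like cells (median 0.08, 3 with an unadjusted p under 0.05). The glucose transporter Slc2a1 had a log2 change of −0.88 (edgeR adjusted p = 0.592), the 14-3-3 protein Ywhae one of 0.34 (0.623 by the same test) and the PI3K subunit Pik3r1 one of −0.63 (0.717). DESeq2 called none of them. Relatives of the 10 genes included the other Zfp36 family members, Zfp36 and Zfp36l1, with log2 changes of −0.32 and −0.36 in T-like cells and −0.51 and −0.53 in Kupffer-like cells. Zfp36l2 was higher after exercise in Kupffer-like cells, so it went the other way there from both relatives. Klf6 had log2 changes of −0.56 in T-like and −0.49 in Kupffer-like cells, where Klf2 was 0.31. None of the relatives was called by edgeR or DESeq2, and 2 of 11 tested in T-like and 5 of 13 in Kupffer-like cells had an unadjusted p under 0.05.

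Other measurements also differed between the libraries, some of them without overlap between the groups, and their part in the results above was not tested. Immediate early and heat shock genes, which tissue dissociation can induce, summed to 4533 and 4791 CPM after exercise and 4474 and 6171 CPM in the sedentary libraries in T-like cells. In Kupffer-like cells the sums were 4266 and 4413 CPM against 4999.7 and 6936 CPM. Sedentary replicate 2 had the highest sum in all 12 classes, and in 4 of them the sums did not overlap between the groups. It was also the highest library for Ddit4 and Sgk1 in 12 classes, for Tsc22d3 in 10, for Mt1 in 9 and for Txnip in 7. For Zfp36l2 and Pik3ip1 this held in 6 classes, for Fkbp5 in 5, for Cited2 in 3 and for Klf2 in 1. The share of all genes with this library highest is not given here.

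Of this list Junb, an AP-1 subunit, fell in T-like cells (log2 change −0.91, SE 0.11, edgeR adjusted p = 0.0159), from 745 and 884 CPM to 460 and 446 CPM. Over the alternatives its adjusted p in edgeR and DESeq2 ran from 2.15e-12 to 0.252, the highest being without exercise replicate 1. Fos, Fosb and Junb fell in the Cxcr6 subset by 1.62, 2.14 and 0.90 (edgeR adjusted p = 0.0323, 0.0198 and 0.0290). In that subset all 3 had both exercise libraries below both sedentary ones.

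Transcripts of hepatocytes were higher in the sedentary libraries in all 12 classes. The 9 markers were all detected in T-like, B-like, Kupffer-like and endothelial-like cells. Their summed level was 20.1 and 20.1 CPM after exercise against 242 and 57.3 CPM in T-like cells, 33.4 and 34.1 CPM against 563 and 272 CPM in B-like cells and 148 and 109 CPM against 1337 and 665 CPM in Kupffer-like cells. Sedentary replicate 1 had the most in these 3 classes. Restricted to T-like cells without any UMI of the 9 markers, the log2 change was −1.39 for Tsc22d3 and −1.36 for Zfp36l2. Over all T-like cells these values were −1.30 and −1.33. The restriction kept 520 of 551 and 607 of 643 T-like cells after exercise. It kept 370 of 604 and 542 of 617 in the sedentary libraries, so cells were lost unevenly. For Klf2 the same restriction moved the Kupffer-like value from 0.31 to 0.15. It kept 780 of 1189 and 1260 of 1749 Kupffer-like cells after exercise. In the sedentary libraries it kept only 144 of 1267 and 258 of 1281, a more uneven loss than in T-like cells. The part of hepatocyte RNA in these changes was not tested. Erythroid transcripts were also higher in the sedentary libraries in Kupffer-like cells, at 100.04 and 294 CPM after exercise against 2089 and 897 CPM. Median UMIs per T-like cell were 3024 and 3012 after exercise and 2441 and 2558 in the sedentary libraries, and mitochondrial UMIs made up 2.92% and 2.94% against 3.42% and 2.93%.

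**Figure D5:**
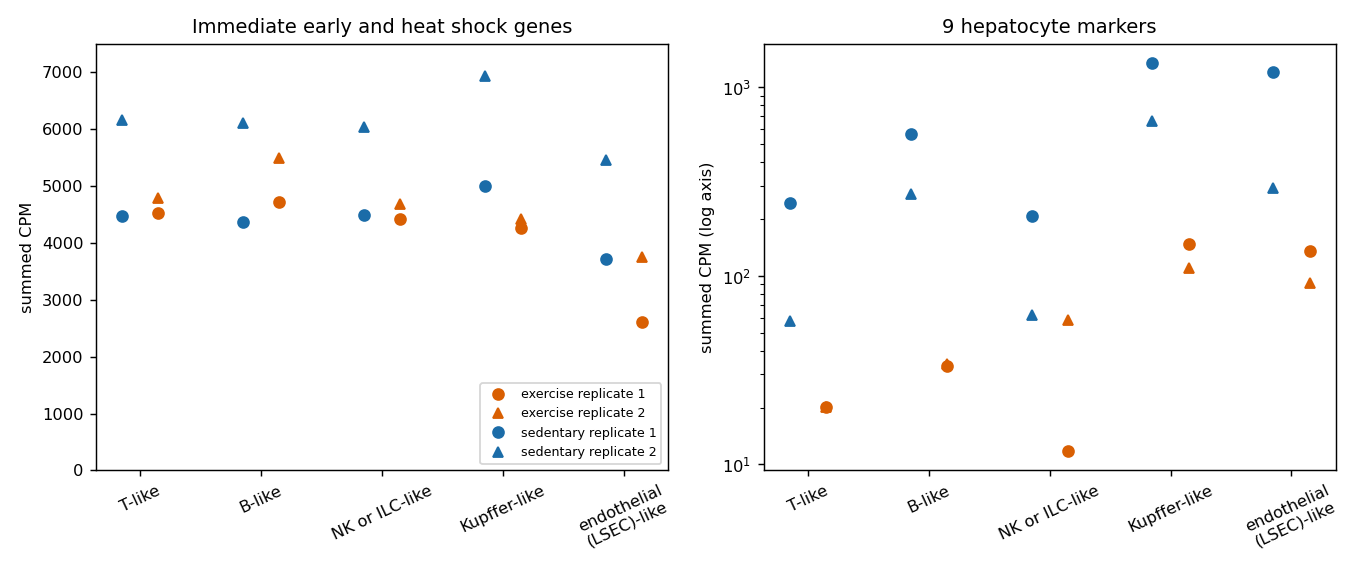
Summed CPM per library of immediate early and heat shock genes (left, linear axis) and of 9 hepatocyte markers (right, log axis) in 5 classes, blue for sedentary and orange for exercise, circles for replicate 1 and triangles for replicate 2. The blue triangle (sedentary replicate 2) is the highest point on the left in each class, and the blue circle (sedentary replicate 1) on the right.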

How the data were processed

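The authors deposited whole UMI counts for each gene and barcode, not normalized. Tools named in the submitters' processing notes are Cell Ranger (version not given) and Seurat 3.1, with the build mm10 (GRCm38); per the series text a pre-mRNA genome was used, so intronic reads may count. Kept barcodes had 500 UMIs or more, 200 genes or more and a mitochondrial share up to 20%, and doublets were removed at 0.8% per 1000 cells after scoring against simulated doublets. Leiden clustering (2000 variable genes, 30 components, 20 neighbours, resolution 1, leidenalg 0.10.2) gave 25 clusters, named from marker lists. Libraries shared 11 to 31 barcodes pairwise.

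UMIs were summed per library and class. Classes with at least 20 cells per library were fitted with edgeR 4.0.16 (R 4.3.3; filterByExpr, TMM, quasi-likelihood test, Benjamini-Hochberg adjustment over all genes tested, threshold 0.05), which was tested on simulated data. Each SE is the absolute log2 change divided by the square root of the F value of edgeR's test. It is a value of the model and does not give the spread between a gene's own libraries. The labels do not say that replicates are separate animals, though each library has its own alanine aminotransferase value. The p-values rest on the spread between libraries as the model estimates it, which may be technical in part. The 10 genes and all lists were chosen with earlier results of these data known. Named list genes are those called in T-like or B-like cells, at most 5 a list, filled to 3 by smallest p in T-like cells. Klf9 was named after its values were seen. Cebpd was not used. With 2 against 2 libraries an exact permutation test cannot give a p below 0.333. Alternatives are DESeq2 1.42.0, no TMM, no filter, stricter cells, more doublets removed, cells without hepatocyte UMIs, a replicate block, other subsets and each library left out.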

Additional observations from a re-analysis of the deposited data

Results flagged for a closer look

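In the following cases every library of 1 class moved one way and every library of another class the opposite way, with exercise libraries all below the sedentary ones in the first and all above in the second, or the reverse. The difference between the classes was not tested, and the classes come from the same 4 libraries. For Zfp36l2 the log2 change in T-like cells minus that in Kupffer-like cells was −1.75, and in B-like minus Kupffer-like cells it was −1.90. For Klf2 the change in T-like cells was lower by 1.27 than in Kupffer-like cells (difference −1.27) and the difference between T-like and endothelial (LSEC)-like cells was −1.61. For Cited2 the change in the Cxcr6 T subset minus that in the Lef1, Dapl1 or Cd8b1 T subset was 0.49, where the groups of the Cxcr6 subset were parted by less than 1 CPM.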

How the results depend on the processing

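In edgeR's quasi-likelihood test 3 genes were called in T-like, 17 in B-like, 43 in Kupffer-like and 2 in endothelial (LSEC)-like cells, 8 in the Cxcr6 subset, 2 in the Lef1, Dapl1 or Cd8b1 subset and 24 over the other classes. In that order, testing without a filter on low counts called 110, 63, 215, 49, 74, 16 and 203 genes, and cells without a hepatocyte UMI gave 22, 7, 13, 0, 14, 4 and 9. DESeq2 called 15, 12, 70, 1, 8, 3 and 31, library totals without TMM 3, 5, 67, 6, 7, 3 and 18, and cells with at least 1000 UMIs and 500 genes 7, 18, 44, 3, 7, 2 and 20. With the subsets divided by cell, 0 genes were called in the Cxcr6 subset and 1 in the other. Leaving out each library in turn gave 0 to 107 genes in T-like, 29 to 58 in B-like, 0 to 117 in Kupffer-like, 3 to 34 in endothelial (LSEC)-like, 28 to 94 in Cxcr6, 11 to 45 in Lef1, Dapl1 or Cd8b1 and 124 to 281 in other classes, with the lone library of a group assumed to vary like the other group. The labels number the libraries in both groups without saying that a number marks a shared batch, and the correlation of same-numbered deviations ran from 0.049 to 0.184 outside classical monocyte-like cells (−0.161). With the replicate block 90, 23, 166, 48, 85, 17 and 137 genes were called; the crossed pairing in classical monocyte-like cells, added after seeing the data, left 24. The cause of these moves was not tested, and a count does not say which genes. The 10 genes were chosen on this contrast, so nothing is read from how often they were called or kept their sign. Among the called log2 changes of the 10 genes and that of Junb in T-like cells none changed sign under an alternative, but several calls were lost. The signs of other called genes were not followed. Those of Junb and Txnip in T-like cells were lost without exercise replicate 1. In B-like cells Zfp36l2 was called in 8 of 11 alternatives, Pik3ip1 in 9 and Tsc22d3 in 10; all 3 were lost without TMM, Zfp36l2 and Pik3ip1 also with DESeq2, and Zfp36l2 with more doublets removed. In NK or ILC-like cells Zfp36l2 was called in 9 of 11, not without exercise replicate 2 or with more doublets removed. Txnip was called in 10 of 12 in the Cxcr6 subset, not with subsets by cell or stricter cells, and in 11 of 12 in the other subset, not with subsets by cell. Changes short of the threshold did change sign, as given above for Tsc22d3 in Kupffer-like and Ddit4 in T-like cells. Without TMM the median over all genes moved by at most 0.068. Counts of a few UMIs per library limit Fkbp5 in B-like and Pik3ip1 in NK or ILC-like cells, among others. B-like cells also had low counts of Sgk1 (14 and 15 UMIs after exercise against 44 and 33) and Ddit4 (10 and 17 against 60 and 81).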
